A study of Mus musculus with 18 samples.

Results

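The comparison set nontumour liver of mice given diethylnitrosamine (DEN), pooled over both genotype labels, against liver of untreated mice. It took 15 of the 18 mouse liver RNA-seq libraries by their labels. There were 9 DEN libraries taken as nontumour (6 labelled WT and 3 labelled LKO) and 6 untreated libraries (3 labelled WT and 3 labelled LKO). Of the 9, only the 3 labelled LKO have titles that mark the tissue as nontumour. In LKO mice Ftcd, the gene of a liver enzyme that links histidine breakdown to folate, was deleted in liver by a Cre driver that the labels do not name, and WT mice were their littermates. DEN mice had received 20 mg/kg into the peritoneum on postnatal day 14, and their livers were taken 12 months after that injection. Untreated mice were 12 months old at harvest, about 14 days younger, and no vehicle injection is named for them. The 3 tumour libraries of DEN LKO mice did not enter the fit. Each gene's value was in TPM, a length-corrected share of the library's transcripts, and each fold change is a difference of log2(TPM + 1), DEN minus untreated, with the genotype label as an additive term. That scale understates differences of genes with low TPM. No label says that the libraries of a group came from separate animals, so the p-values measure the spread between these libraries, which may be technical.

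DEN is not itself reactive. Cytochrome P450 enzymes of hepatocytes around the central vein, Cyp2e1 and members of the Cyp2a family, turn it into a form that alkylates DNA, and a single dose in infancy leads to liver tumours many months later. Repair by Mgmt, which removes alkyl groups from guanine, and the p53 response act in the days after the dose. Oncofetal genes such as Afp, H19 and Igf2 are active in fetal liver, silent in adult liver and often active again in liver tumours. Kupffer cells are the resident macrophages of the liver sinusoids, which carry scavenger and complement receptors and can be replaced or joined by macrophages from blood monocytes.

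The libraries differed in ways that DEN does not describe. Ftcd was at 0.34 to 3.16 TPM in the 6 libraries labelled LKO and at 61.2 to 106 TPM in 6 of the 9 labelled WT. The libraries labelled DEN WT 1 (2.36 TPM), DEN WT 2 (2.5 TPM) and untreated WT 3 (1.77 TPM) had levels of the LKO labels, so list counts are also given without these 3. By Xist and Y-linked genes all 9 libraries labelled WT and DEN LKO 1 were XX, and DEN LKO 2, DEN LKO 3 and the 3 untreated LKO libraries were XY. Mitochondrially encoded genes took 4.39% to 38.8% of TPM in DEN libraries and 4.24% to 30.9% in untreated libraries. The pooled log2 difference of that share was -0.08 (2-sided exact permutation within genotype, p = 0.8625, 1680 arrangements). DEN WT 1 (38.8%) and DEN LKO 1 (36.9%) had the highest shares. The 25 tested genes of hepatocyte identity summed to between 49876 and 163226 TPM in DEN libraries and between 39498 and 121413 TPM in untreated libraries, so the liver label fits its markers. They do not check the nontumour label. Among them, Alb had 6758, 39153 and 16503 TPM in the LKO tumour libraries, beside 9963 to 59439 TPM in DEN nontumour libraries. Among DEN libraries, only the LKO titles carry a mark of nontumour (N) or tumour (T) tissue. TPM keeps no counts, and the sequencing depth is therefore unknown.

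Across the genome no gene passed limma's threshold for the pooled DEN effect. Of 13249 genes tested, 0 (0.0%) had an adjusted p under 0.05 (Benjamini-Hochberg over all genes), and the smallest adjusted p was 0.591. At an unadjusted p under 0.05 there were 659 genes (4.97%), of which 594 (4.48% of those tested) were higher and 65 (0.491%) lower in DEN liver. Without the 3 low-Ftcd libraries there were 859, with 792 higher and 67 lower, and without DEN LKO 3 there were 406, with 356 higher and 50 lower. That uneven split depended on scaling, since it was 682 higher and 372 lower with median-ratio scaling and 517 higher and 348 lower with quantile normalization. Over all tested genes the fold changes had a median of 0.05, and 58.9% lay above 0. The median standard error was 0.31. In 13 genes (0.0981%) all 9 DEN libraries lay above all 6 untreated libraries, and in 0 genes all 9 lay below. Those 13 were Cfp, H19, Pak1, Lgals3, Sh3kbp1, Tnfaip8l2, Akr1c18, Tmsb4x, Bcl2a1a, Igsf6, Rgs2, Lilra5 and Il15, listed after their values were seen. In 24 genes (0.181%) DEN libraries lay above untreated ones both within WT and within LKO, and in 0 genes below in both. However, 485 of the tested genes had 0 untreated libraries at 1 TPM, against 10 with 0 DEN libraries at 1 TPM. The 485, H19 and Akr1c18 included, entered through DEN libraries and could hardly lie lower. Separation within LKO alone, of 3 from 3 libraries, is a weak criterion. Its share over all genes was not counted, so it only describes the genes named below. For the pooled effect, the gene values that follow are therefore descriptions.

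**Figure D1:**
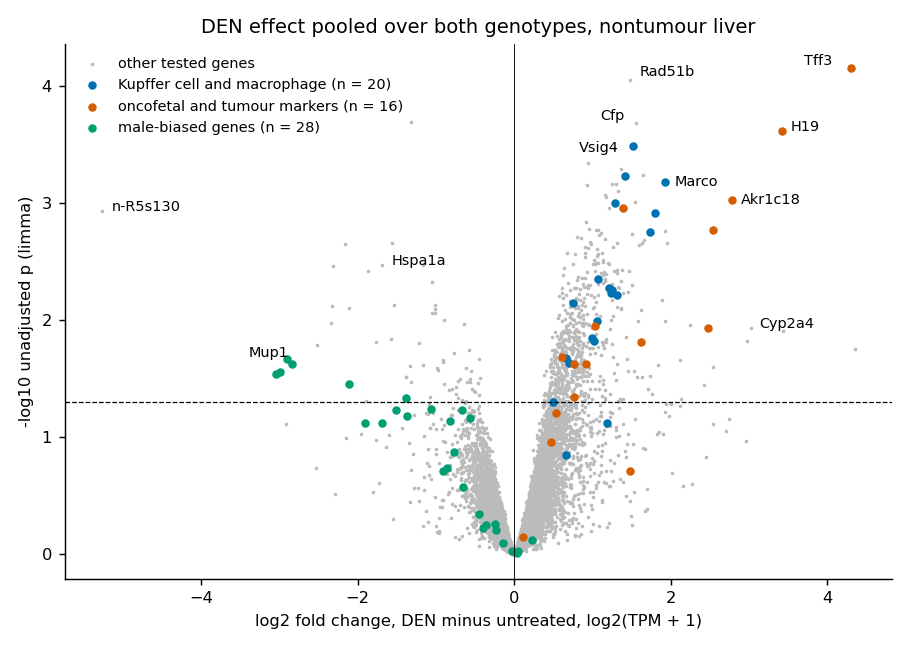
Each point is 1 of 13249 tested genes, with the pooled log2 fold change (DEN minus untreated) on the x axis and -log10 of limma's unadjusted p on the y axis. The dashed line marks limma's unadjusted threshold of 0.05, and blue, orange and green points are the tested Kupffer cell, oncofetal and male-biased genes. Blue and orange points lie right of 0, where their medians are 1.20 and 1.21 (0.76 for oncofetal genes with no filter), and most green points lie left of it.

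Among the named genes higher in DEN liver, Tff3 had the smallest unadjusted p, before Rad51b, Cfp and H19. Tff3 and H19 are on the oncofetal and liver tumour list. Tff3 (ENSMUSG00000024029, mm10 chr17:31125306-31129646, minus strand) encodes a secreted trefoil peptide of mucous epithelia. It had 0.79 to 55.1 TPM in DEN WT (median 14.9) and 9.06, 371 and 119 TPM in DEN LKO 1 to 3, against 0, 0.25 and 0 TPM in untreated WT and 1.44, 0.94 and 0.8 TPM in untreated LKO. Within each genotype label the DEN libraries lay above the untreated ones, while over both labels the lowest DEN WT library overlapped untreated LKO. The pooled log2 fold change was 4.30 ± 0.82 (SE, limma adjusted p = 0.591), and it was 4.61 when the 3 low-Ftcd libraries were left out.

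H19 (mm10 chr7:142575529-142578143, minus strand) is an imprinted noncoding RNA expressed from the maternal allele and abundant in fetal liver. It had 0.68 to 85 TPM in DEN WT (median 13.4) and 38.7, 1.69 and 14 TPM in DEN LKO 1 to 3, against 0.25, 0.18 and 0.1 TPM in untreated WT and 0.11, 0.14 and 0.5 TPM in untreated LKO. No untreated library reached the lowest DEN library. The fold change was 3.41 ± 0.73 (SE, limma adjusted p = 0.606), at 3.54 within WT and 3.24 within LKO. Its neighbour Igf2, the paternally expressed fetal growth factor, was high in fewer libraries. Igf2 had 46.9 TPM in DEN WT 4, 50.1 in DEN WT 6 and 76.4 in DEN LKO 1, and 0.38 to 4.22 TPM in the other 6 DEN libraries, against 0.12 to 0.91 TPM in the 6 untreated libraries. The pooled value was 2.47 ± 0.87 (limma adjusted p = 0.747).

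Akr1c18, a 20-alpha-hydroxysteroid dehydrogenase that inactivates progesterone, was the other member with no overlap. It had 0.53 to 31.6 TPM in DEN WT (median 3.02) and 3.68, 109 and 11.2 TPM in DEN LKO 1 to 3, against 0.11, 0.08 and 0.18 TPM in untreated WT and 0.32, 0.33 and 0.29 TPM in untreated LKO (2.78 ± 0.69, limma adjusted p = 0.606). DEN WT 4 and DEN LKO 2 were the highest of their groups. Afp, the fetal serum protein used as a marker of liver cancer, had 0.16 to 30.4 TPM in DEN WT (median 1.31) and 1.19, 12.6 and 5.65 TPM in DEN LKO 1 to 3, against 0.48, 0.58 and 0.09 TPM in untreated WT and 0.11, 0.04 and 0.78 TPM in untreated LKO. DEN WT 4 alone held the high value of its group, and DEN and untreated libraries overlapped within WT but not within LKO (pooled 1.63 ± 0.60, limma adjusted p = 0.761). Gpc3, a cell-surface glypican of fetal liver and liver cancer, was again highest in DEN WT 4 at 7.44 TPM, and lay between 0.15 and 2.65 TPM in the other 8 DEN libraries, against 0 to 0.52 TPM in untreated liver (0.92 ± 0.37, limma adjusted p = 0.802). Scd2, a fatty acid desaturase active before weaning, had 0.64 to 3.17 TPM in DEN WT (median 2.25) and 2.27, 11 and 5.53 TPM in DEN LKO, against 1.5, 0.28 and 0.86 TPM in untreated WT and 0.13, 0.31 and 0.31 TPM in untreated LKO (1.39 ± 0.35, limma adjusted p = 0.614).

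**Figure D2:**
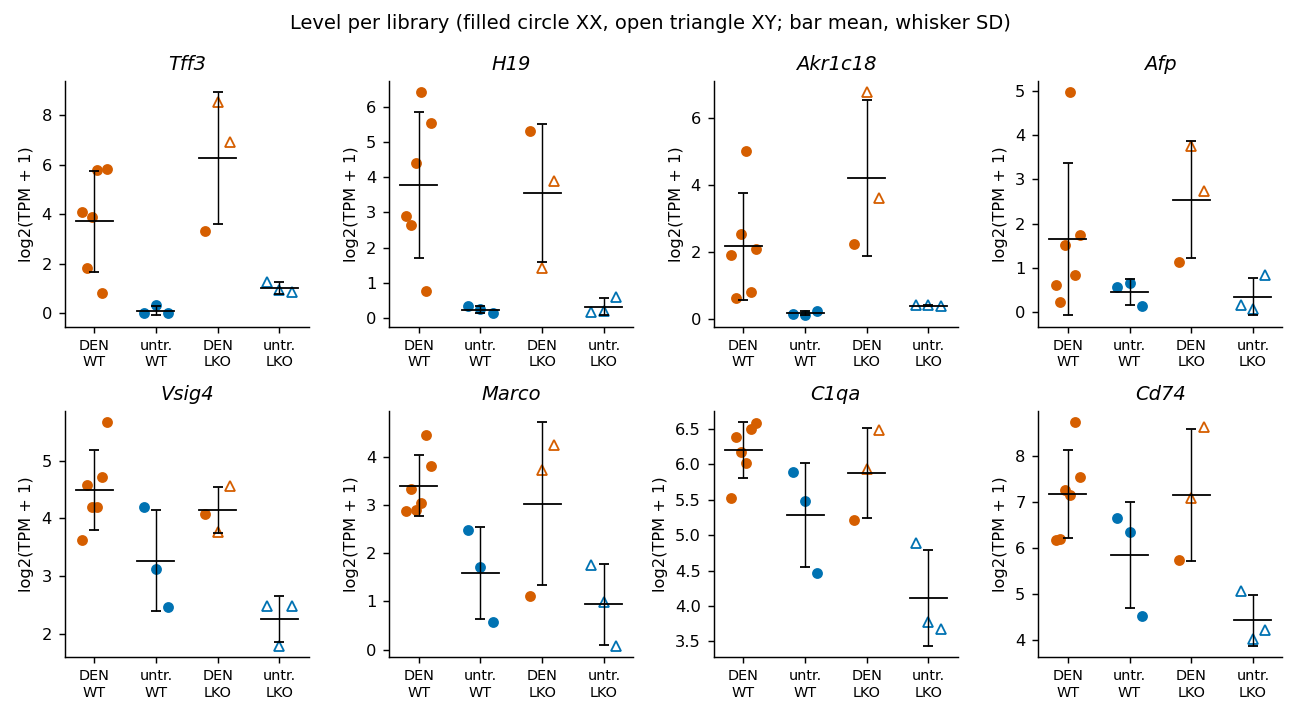
Levels on log2(TPM + 1) of 4 oncofetal genes (top) and 4 macrophage or antigen presentation genes (bottom) in each of the 15 libraries, with DEN left of untreated within each genotype label. Filled circles are XX and open triangles XY libraries, bars are group means and whiskers SD (n = 6 for DEN WT, 3 for the other groups). For H19 and Akr1c18 every DEN library lies above every untreated one, and the high Afp value of DEN WT 4 (30.4 TPM) stands apart.

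The same genes in the 3 LKO tumour libraries give the range that tumour tissue of this series spans, as a description. Tff3 had 1.24, 65.4 and 120 TPM there, H19 1.16, 1.7 and 83.9 TPM, and Akr1c18 14.3, 222 and 3.5 TPM. Of the list's 25 genes, 16 passed the filter of 1 TPM in at least 3 of the 15 libraries. Of these, 12 were higher and 0 lower at an unadjusted p under 0.05, beside 4.48% and 0.491% of all genes. The median was 1.21, beside 0.05 for all genes. However, 9 of the 16 had 0 untreated libraries at 1 TPM, against 3.66% of all tested genes, so they entered through DEN libraries and could hardly lie lower. Without the filter 13 of the 24 members above 0 were higher, with a median of 0.76. The count was 4 of 15 tested in the libraries labelled WT alone and 13 of 16 without the 3 low-Ftcd libraries.

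Genes of Kupffer cells and macrophages formed the other leading group. Of 24 listed, 20 were tested, and 17 were higher and 0 lower at an unadjusted p under 0.05, beside 4.48% of all genes. All 20 tested members had fold changes above 0 in both WT and LKO, where 32.7% of all genes did and 20.2% were below 0 in both, and only 1 of them lacked an untreated library at 1 TPM. Fold changes ran from 0.50 to 1.93 with a median of 1.20, at 0.72 within WT and 1.68 within LKO. Their summed level was 253 to 936 TPM in DEN WT and 257 to 860 TPM in DEN LKO, against 166 to 437 TPM in untreated WT and 101 to 157 TPM in untreated LKO. The sums of DEN and untreated libraries overlapped within WT and did not within LKO. The count was 19 of 20 without the 3 low-Ftcd libraries, 20 of 20 without the 2 libraries above 35% mitochondrial TPM (a choice made after seeing the data), and 6 of 20 in the libraries labelled WT alone. In bulk tissue, more cells of a type and more RNA per cell cannot be told apart.

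To show the regulatory sequence beside these values, 250 bases upstream are given for 3 of the 4 list members that the naming rule reached. They lie upstream of the start annotated in RefSeq (GRCm38.p6), 5′ to 3′ on the gene's strand. For Lgals3 that window lies inside the gene's GENCODE span (chr14:47367751-47386160), so it is not upstream of the GENCODE start. Capitals mark GAGGAA, a core that the macrophage regulator PU.1 binds, searched on both strands.
Vsig4, chrX:96293439-96293688, minus strand: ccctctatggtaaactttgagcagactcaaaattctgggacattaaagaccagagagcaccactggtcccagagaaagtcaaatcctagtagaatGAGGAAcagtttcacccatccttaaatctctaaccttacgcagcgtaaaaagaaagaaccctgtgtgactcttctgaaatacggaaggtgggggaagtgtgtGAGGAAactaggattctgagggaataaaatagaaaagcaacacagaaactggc
Marco, chr1:120505025-120505274, minus strand: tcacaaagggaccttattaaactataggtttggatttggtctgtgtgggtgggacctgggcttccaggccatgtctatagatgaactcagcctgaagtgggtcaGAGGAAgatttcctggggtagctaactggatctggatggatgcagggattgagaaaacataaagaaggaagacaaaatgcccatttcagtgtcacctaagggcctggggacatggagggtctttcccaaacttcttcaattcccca
Lgals3, chr14:47373610-47373859, plus strand: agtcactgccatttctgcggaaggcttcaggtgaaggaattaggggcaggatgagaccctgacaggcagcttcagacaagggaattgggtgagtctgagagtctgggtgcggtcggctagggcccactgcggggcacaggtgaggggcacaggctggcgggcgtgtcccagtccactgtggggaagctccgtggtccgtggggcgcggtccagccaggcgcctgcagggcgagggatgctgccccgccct
The core occurred 2 times for Vsig4, 1 time for Marco and 0 times for Lgals3. It was present in 10 of the 21 windows found for the 20 matched list members and in 23.3% of all 32851 windows. A match is a description of these letters and does not show binding.

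Vsig4, the complement receptor that takes up opsonised particles in resident Kupffer cells, had 11.3 to 49.8 TPM in DEN WT (median 20.1) and 15.9, 12.6 and 22.6 TPM in DEN LKO 1 to 3, against 17.3, 7.72 and 4.5 TPM in untreated WT and 4.55, 2.46 and 4.59 TPM in untreated LKO. Only untreated WT 1 reached into the DEN range. The fold change was 1.52 ± 0.34 (SE, limma adjusted p = 0.606). Marco, a scavenger receptor for bacteria and particles, had 6.32 to 21 TPM in DEN WT (median 8.16) and 1.16, 12.2 and 18.1 TPM in DEN LKO 1 to 3, against 4.58, 2.3 and 0.49 TPM in untreated WT and 2.37, 0.98 and 0.06 TPM in untreated LKO. DEN LKO 1 was the one DEN library among the untreated values (1.93 ± 0.46, limma adjusted p = 0.606).

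C1qa, a chain of the complement starter C1q that tissue macrophages make, had 45.1 to 95.5 TPM in DEN WT (median 77.1) and 36.3, 60.1 and 88.4 TPM in DEN LKO 1 to 3, against 58.7, 43.8 and 21.1 TPM in untreated WT and 28.6, 12.7 and 11.7 TPM in untreated LKO (1.28 ± 0.32, limma adjusted p = 0.606). Within LKO the groups were apart, and within WT they overlapped. Lgals3, the galectin of activated and monocyte-derived macrophages, had 9.84 to 16.1 TPM in DEN WT (median 11.7) and 11.2, 25.2 and 45.7 TPM in DEN LKO, against 6.27, 8.75 and 5.72 TPM in untreated WT and 6.21, 4.34 and 2.37 TPM in untreated LKO (1.42 ± 0.34, limma adjusted p = 0.606). All 9 DEN libraries were above all 6 untreated libraries.

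Cfp also had all 9 DEN libraries above all 6 untreated libraries. It encodes properdin, the plasma factor that stabilises the alternative complement convertase and is made by myeloid cells. It had 20 to 36.1 TPM in DEN WT (median 28.7) and 21.7, 36.7 and 56.5 TPM in DEN LKO, against 16.2, 18 and 11.5 TPM in untreated WT and 7.38, 5.57 and 3.59 TPM in untreated LKO. The fold change was 1.56 ± 0.33 (limma adjusted p = 0.606), with 0.83 within WT and 2.53 within LKO. Within LKO it passed the threshold (limma adjusted p = 0.0310), while the difference between the labels did not (limma unadjusted p = 0.00623, adjusted p = 1). Wfdc17, a small secreted protein of activated macrophages, had 31.3 to 76.7 TPM in DEN liver (median 66.2) and 13.6 to 34.4 TPM in untreated liver (median 20.9), with a fold change of 1.28 ± 0.28 (limma adjusted p = 0.606). Ptpn18, a tyrosine phosphatase, had 2.93 to 24.1 TPM in DEN liver (median 7.42) and 0.79 to 5.79 TPM in untreated liver (median 2.3), with DEN WT 5 at the top (1.36 ± 0.32, limma adjusted p = 0.606).

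Antigen presentation and lymphocyte genes lay in the same direction. Of the 10 tested genes of the dendritic cell and MHC class II list, 7 were higher at an unadjusted p under 0.05 (median 0.97), beside 4.48% of all genes, and 2 of the 10 had no untreated library at 1 TPM. The count was 6 of 9 without the 3 low-Ftcd libraries and 0 of 8 in the libraries labelled WT alone. Cd74, the invariant chain of MHC class II, had 70.6 to 425 TPM in DEN WT (median 147) and 52.7, 134 and 397 TPM in DEN LKO 1 to 3, against 99.1, 80.8 and 21.9 TPM in untreated WT and 32.2, 15.1 and 17.5 TPM in untreated LKO (1.93 ± 0.52, limma adjusted p = 0.624). DEN WT 5 and DEN LKO 3 were the highest, and the groups overlapped within WT. H2-Aa, an MHC class II alpha chain, had 27.3 to 152 TPM in DEN liver (median 54.8) and 7.34 to 48.8 TPM in untreated liver (median 15.7).

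Of 14 tested T and NK cell genes, 7 were higher at an unadjusted p under 0.05 (median 0.73), beside 4.48% of all genes. Of the 14, 2 had no untreated library at 1 TPM. The count was 4 without DEN LKO 2 or untreated WT 3, 5 of 13 without the 3 low-Ftcd libraries and 0 of 10 in WT alone. Ccl5, a chemokine of cytotoxic lymphocytes, had 7.65 to 63.9 TPM in DEN liver (median 20.6) and 3.05 to 17.8 TPM in untreated liver (median 5.17), at 1.63 ± 0.45 (limma adjusted p = 0.624). Trbc2, a constant region of the T cell receptor beta chain, had 1.68 to 19.4 TPM against 0.62 to 2.76 TPM in untreated liver (1.32 ± 0.44, limma adjusted p = 0.676). Among 19 tested B and plasma cell genes 2 were higher (median 0.81), and 4 of the 19 had no untreated library at 1 TPM. The count was 4 of 17 without the 3 low-Ftcd libraries. It was 8 without DEN WT 2, 7 without DEN WT 6, 4 without DEN WT 4 or untreated WT 3, and 1 without DEN LKO 2, untreated WT 2 or untreated LKO 1. Igha, the IgA heavy chain, was uneven within the DEN group, at 63.2 to 88.9 TPM in DEN WT 1, 4 and 5 and 5.46 to 28.8 TPM in the other 6 DEN libraries, against 1.54 to 13.4 TPM in untreated liver.

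Only 4 of 14 neutrophil genes passed the filter, 1 of them with no untreated library at 1 TPM, and 2 were higher. That count was 0 without untreated WT 3 or without the 3 low-Ftcd libraries, and 1 without DEN WT 6, DEN LKO 2 or DEN LKO 3. S100a8, a calcium-binding protein of neutrophils, had 2.44 to 15.3 TPM in DEN liver and 0.76 to 4.29 TPM in untreated liver (0.81 ± 0.30, limma adjusted p = 0.761). The interferon list had 1 of 27 members higher (3.70%), at a median of -0.04 within WT and 0.60 within LKO. Of 16 genes of MHC class I presentation 1 was higher (6.25%, median 0.27). Both shares were near the 4.48% of all genes higher at an unadjusted p under 0.05. Both counts were 4 without DEN WT 1 and 3 without untreated WT 1. The interferon count was 0 without DEN LKO 3 or untreated WT 3. The MHC class I count was 2 without DEN WT 2 or DEN WT 4, and 0 without DEN LKO 2 or untreated LKO 2. Acute phase genes had 0 of 25 members at an unadjusted p under 0.05 (median 0.31). Without the 3 low-Ftcd libraries the counts were 2 of 27, 3 of 16 and 2 of 25 for the interferon, MHC class I and acute phase lists.

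Lists of structural and vascular cell types had 0 or 1 member at an unadjusted p under 0.05, and some of these counts rested on single libraries. Of 24 tested stellate cell and matrix genes 2 had no untreated library at 1 TPM. Of the 24, 23 lay above 0 in both genotypes, beside 32.7% of all genes, with a median of 0.36. At an unadjusted p under 0.05, 1 of the 24 was higher (4.17%, near the 4.48% of all genes). The count was 6 without DEN WT 1, 3 without DEN WT 2, 2 without DEN LKO 1 or untreated WT 1, and 0 without DEN WT 5, DEN LKO 3, untreated WT 3, untreated LKO 1 or untreated LKO 3. It was 13 with library weights and 5 without the 3 low-Ftcd libraries. The 1 gene was Rgs5, a signalling regulator of pericytes, at 0.86 to 10.04 TPM in DEN liver and 0.76 to 2.42 TPM in untreated liver (0.79 ± 0.34, limma adjusted p = 0.88). Endothelial genes gave 0 of 21 (median 0.26), also without the 3 low-Ftcd libraries, and 1 of 21 without DEN WT 1 or DEN WT 3 and 1 of 20 without untreated WT 1. Of 15 tested cholangiocyte genes 2 had no untreated library at 1 TPM. Cholangiocyte genes gave 1 of 15 (median 0.48), and 5 without DEN LKO 1 or without the 3 low-Ftcd libraries, 4 without DEN WT 1, 3 without untreated WT 1 or untreated LKO 3, and 2 without DEN WT 2. That count was 0 without DEN WT 3, DEN WT 5, DEN LKO 2, DEN LKO 3, untreated WT 2 or untreated LKO 1, and 9 with library weights. Red cell genes gave 0 of 7 (pooled median 0.60), also without the 3 low-Ftcd libraries, and 1 without DEN LKO 1. Within WT all 7 red cell genes lay above 0 with a median of 1.00, and within LKO 4 did with a median of 0.00. Krt19, the keratin of bile ducts, had 0.22 to 6.24 TPM in DEN liver, highest in DEN LKO 3, and 0.39 to 1.66 TPM in untreated liver (0.65 ± 0.32, limma adjusted p = 1).

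**Figure D3:**
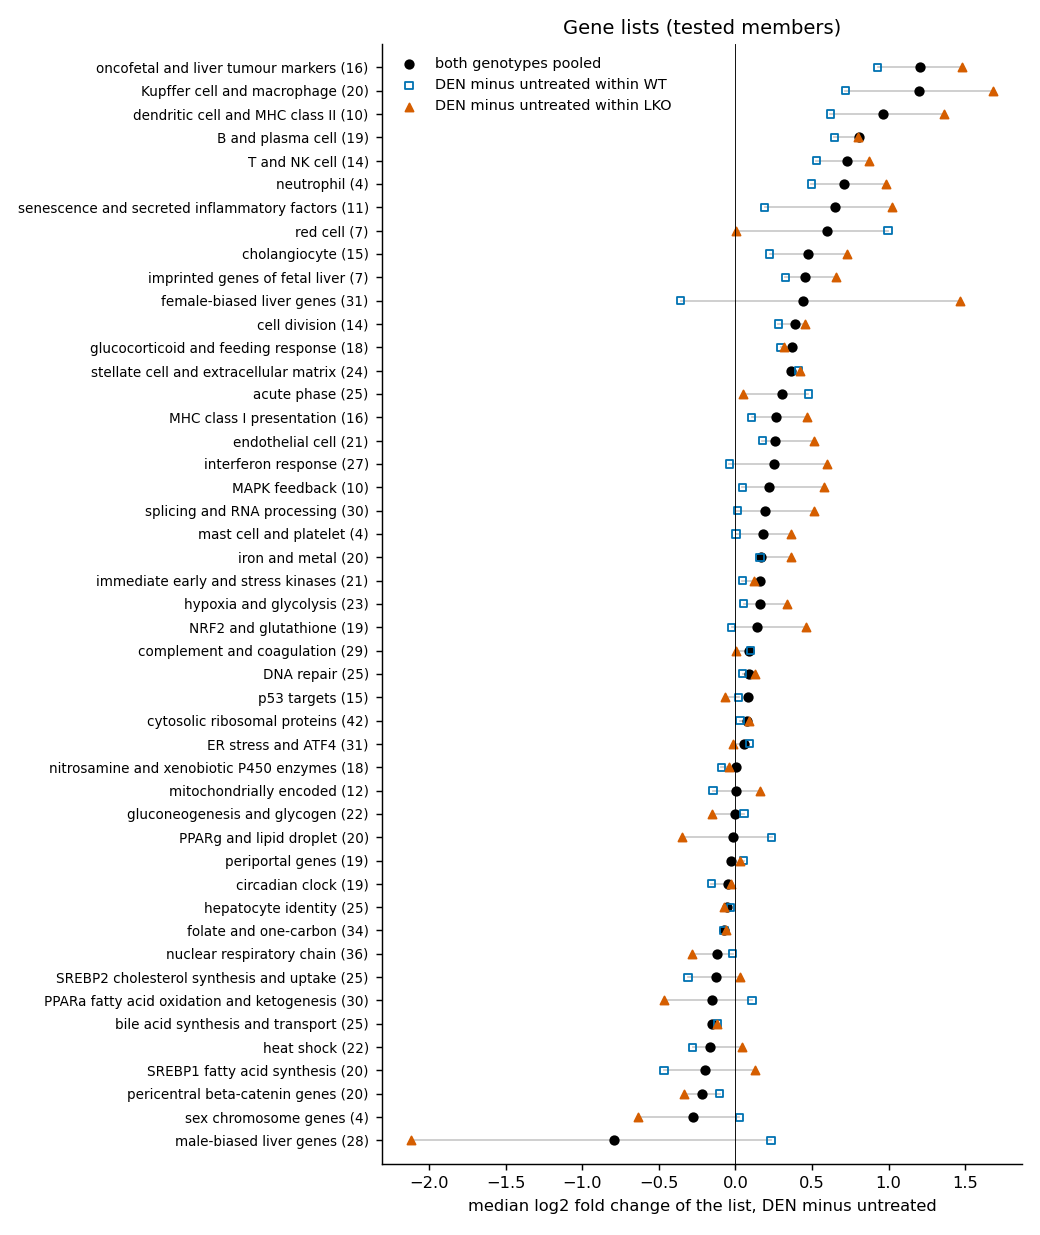
Median log2 fold change (DEN minus untreated) of each list with at least 4 tested members, pooled (black dot), within WT (blue square) and within LKO (orange triangle), with the number of tested members after the name. The Kupffer list has a pooled median of 1.20. The oncofetal median of 1.21 rests on a list in which 9 of 16 members passed the filter through DEN libraries, and is 0.76 with no filter; male-biased genes are at the bottom at -0.79, where WT (0.23) and LKO (-2.12) differ in sign.

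Lists of genes that activate DEN, repair its adducts or respond to DNA damage had medians of 0.00 to 0.09, beside 0.05 for all genes, 12 months after the dose. Cyp2e1, the main DEN-activating enzyme, ranged from 427 to 7472 TPM in DEN WT (median 5607) and had 489, 382 and 583 TPM in DEN LKO, against 5917, 3234 and 684 TPM in untreated WT and 2330, 354 and 1379 TPM in untreated LKO. The 3 low-Ftcd libraries labelled WT were the lowest of their groups. The pooled value was -0.24, with a 95% interval of -1.69 to 1.21, and its sign depended on the libraries used. Cyp2a5, which also oxidises nitrosamines, had a pooled value of 0.28 (-0.72 to 1.28). The 18 P450 enzymes of nitrosamine and drug metabolism had a median of 0.00. Of them 1, Cyp2a4, was higher at an unadjusted p under 0.05 (5.56%, near the 4.48% of all genes). Its value was 3.02 pooled, but -0.42 within WT and 7.60 within LKO. The count of P450 enzymes higher was 2 without DEN WT 1, without untreated WT 1 or without the 3 low-Ftcd libraries.

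Mgmt had 3.35 to 11.8 TPM in DEN liver (median 5.61) and 4.49 to 13 TPM in untreated liver (median 10.5), with a pooled value of -0.58 (95% interval -1.17 to 0.01, limma adjusted p = 1). Of 15 tested p53 targets 0 were at an unadjusted p under 0.05 (median 0.08), also without the 3 low-Ftcd libraries. Among p53 targets, the cell cycle inhibitor Cdkn1a had 0.61 to 22.5 TPM in DEN liver and 0.13 to 8.15 TPM in untreated liver, with a wide interval of -0.51 to 2.16 around 0.82. The p53 antagonist Mdm2 was at 0.21 (-0.43 to 0.85), Ccng1, a p53-induced cyclin, at -0.03 (-0.69 to 0.63) and the stress cytokine Gdf15 at -0.28 (-1.43 to 0.87).

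Of 25 DNA repair genes, 2 (8%) were higher at an unadjusted p under 0.05, beside 4.48% of all genes, with a median of 0.09. There were also 2 without the 3 low-Ftcd libraries. The count was 1 without DEN WT 5, DEN LKO 2, DEN LKO 3, untreated WT 2, untreated LKO 1 or untreated LKO 2. Xpa, which verifies lesions in nucleotide excision repair, had 8.32 to 21 TPM in DEN liver and 5.19 to 11.2 TPM in untreated liver, with 0.16 within WT and 1.26 within LKO. The replicative ligase Lig1 had 1.36 to 5.1 TPM in DEN liver and 0.48 to 2.72 TPM in untreated liver (0.60 ± 0.26, limma adjusted p = 0.863). Rad51b, a paralog of the recombinase of homologous recombination, was not on that list but had the second smallest unadjusted p of the named genes. It had 11.6 to 19.1 TPM in DEN WT (median 16.5) and 6.04, 9.96 and 14 TPM in DEN LKO, against 11.9, 7.32 and 6.57 TPM in untreated WT and 0.94, 0.86 and 1.42 TPM in untreated LKO (1.48 ± 0.29, limma adjusted p = 0.591). DEN and untreated libraries were apart within LKO and overlapped within WT. Within LKO the value was 2.35 ± 0.35 and passed the threshold (limma adjusted p = 0.0266), and within WT it was 0.83. With equal weight for both genotypes its limma adjusted p was 0.0318, past the threshold, and over the alternatives it ran from 0.0318 to 1.

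Among NRF2 and glutathione genes 3 of 19 were higher (median 0.14), beside 4.48% of all genes. The count was 5 without DEN WT 1, 1 without DEN WT 5, DEN WT 6, DEN LKO 2, DEN LKO 3, untreated LKO 1 or untreated LKO 2, and 4 without the 3 low-Ftcd libraries. Gsta1, a glutathione transferase, was uneven, with 48.8 TPM in DEN WT 4, 73.5 in DEN LKO 2 and 147 in DEN LKO 3, and 1.56 to 13.4 TPM in the other 6 DEN libraries, against 1.8 to 10.6 TPM in untreated liver. Hmox1, haem oxygenase, had 5.25 to 22.1 TPM in DEN liver and 4.01 to 11.4 TPM in untreated liver (0.75 ± 0.32, limma adjusted p = 0.864). In the cell division list 5 of 14 tested genes were higher (median 0.39), 5 of the 14 having no untreated library at 1 TPM, and the count was 1 without DEN LKO 2 and 3 without DEN WT 3, DEN WT 5, DEN LKO 3 or untreated LKO 1. It was 5 without the 3 low-Ftcd libraries. Cdc20, the activator of the anaphase-promoting complex, had 0.37 to 2.73 TPM in DEN liver and 0.17 to 0.68 TPM in untreated liver (0.68 ± 0.24, limma adjusted p = 0.725). Mki67, the proliferation marker, did not pass the filter, at 0.05 to 0.55 TPM in DEN liver and 0.02 to 0.13 TPM in untreated liver.

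The 11 tested genes of senescence and its secreted factors had a median of 0.65, 0.19 within WT and 1.02 within LKO. Of them 1 had no untreated library at 1 TPM, and 4 were higher at an unadjusted p under 0.05, beside 4.48% of all genes. The count was 0 without untreated LKO 2, 1 without DEN WT 5, DEN LKO 3, untreated LKO 1 or untreated LKO 3, and 2 without DEN LKO 2. It was 4 without the 3 low-Ftcd libraries. Cdkn2a, the locus of p16 and p19ARF, had 0.31 to 4.08 TPM in DEN liver (median 1.98) and 0.21 to 1.43 TPM in untreated liver (median 0.77), with 0.65 ± 0.29 (limma adjusted p = 0.901).

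The 7 metabolic lists of hepatocytes described here had 0 or 1 member at an unadjusted p under 0.05, with medians below that of all genes. Pericentral genes had 0 of 20 at an unadjusted p under 0.05 (median -0.22), PPARa targets 1 of 30 (-0.15), fatty acid synthesis 0 of 20 (-0.20), cholesterol synthesis 0 of 25 (-0.13), bile acid genes 0 of 25 (-0.15), gluconeogenesis 0 of 22 (0.00) and the folate and one-carbon genes 1 of 34 (-0.07). Of the 34 folate and one-carbon genes 3 had no untreated library at 1 TPM. Leaving out single libraries gave at most 3 higher and 1 lower member in any of these 7 lists. Outside them, PPARg and lipid droplet genes had 2 of 20 higher (median -0.02). Hypoxia and glycolysis genes had 3 of 23 higher (median 0.16), beside 4.48% of all genes. Above 0 lay 4 of 20 pericentral, 2 of 20 fatty acid synthesis and 5 of 25 cholesterol synthesis genes, beside 58.9% of all genes. Within WT and LKO the medians were -0.47 and 0.13 for fatty acid synthesis, -0.31 and 0.03 for cholesterol synthesis, -0.10 and -0.33 for pericentral genes and 0.11 and -0.46 for PPARa targets. Without the 3 low-Ftcd libraries the pooled medians of fatty acid and cholesterol synthesis were both 0.01. Glul, the glutamine synthetase of the hepatocytes next to the central vein, was at -0.20 (95% interval -1.04 to 0.65). Clock genes had 0 of 19 (median -0.05), with Per1 at 0.24 (-0.35 to 0.84) and Dbp at -0.28 (-0.86 to 0.29).

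In the lower direction the named genes were fewer in kind. Hspa1a, an inducible Hsp70, had 0.13 to 3.5 TPM in DEN WT (median 0.195) and 0.24, 0.67 and 0.63 TPM in DEN LKO, against 1.52, 4.61 and 11.5 TPM in untreated WT and 0.76, 1.03 and 16.3 TPM in untreated LKO (-1.68 ± 0.49, limma adjusted p = 0.632). DEN WT 5 was the one DEN library above 1 TPM, and within LKO the groups did not overlap. Its near-identical copy Hspa1b was at -1.07 ± 0.50 (limma adjusted p = 0.969), and reads shared by the 2 copies make both values uncertain. These were the 2 lower members among 22 heat shock genes (median -0.17), beside 0.491% of all genes lower at an unadjusted p under 0.05. The count stayed at 2 without DEN WT 5, DEN WT 6, DEN LKO 2, untreated LKO 1 or untreated LKO 2, and was 1 without any of the other 10 libraries or without the 3 low-Ftcd libraries.

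Arrdc3, an arrestin-domain adaptor for membrane receptors, had 2.5 to 13.9 TPM in DEN liver (median 4.32) and 8.4 to 28.5 TPM in untreated liver (median 9.09), and DEN LKO 3 was the one DEN library among the untreated values (-1.05 ± 0.32, limma adjusted p = 0.632). Hes6, a transcription factor of the Hes family, had 14.3 to 60.8 TPM in DEN liver (median 33.2) and 39.6 to 104 TPM in untreated liver (-1.01 ± 0.33, limma adjusted p = 0.676). Slc15a5, a member of the peptide transporter family, had 0.41 to 4.5 TPM in DEN liver and 2.27 to 28.3 TPM in untreated liver (-1.16 ± 0.34, limma adjusted p = 0.632). Also named was n-R5s130, a copy of the 5S ribosomal RNA gene with many near-identical copies. It was listed at 0 in 8 of 9 DEN libraries and at 6.03 TPM in DEN WT 5, against 512, 138 and 0 TPM in untreated WT and 0, 689 and 215 TPM in untreated LKO. A zero in such a table can be a failed estimate, and no fold is drawn from it. The Mup pseudogenes Mup-ps12 (-2.16 ± 0.60), Mup-ps4 (-2.32 ± 0.68) and Mup-ps14 (-1.87 ± 0.56) completed the lower genes (limma adjusted p = 0.624, 0.632 and 0.632). They belong to a family of near-identical copies, so their values are uncertain.

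The pooled value assumes 1 DEN effect for both genotype labels, so the difference of the effects was tested for each gene. Of 13249 genes, 1 (0.00755%) passed limma's threshold, and 427 (3.22%) were at an unadjusted p under 0.05. In the fit of 4 group means, 0 genes passed within WT and 7 (0.0528%) within LKO. The 7 included Cyp2a4, Rad51b, Cfp, Mup-ps5 and Mup-ps11. All 9 libraries labelled WT were XX and 5 of the 6 labelled LKO were XY, so in a difference between the labels genotype and sex cannot be told apart. Across genes the effects in WT and LKO had a Pearson correlation of 0.0388, given as a description over 13249 genes that share libraries, and 52.9% had the same sign.

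The gene that passed was Cyp2a4, a steroid 15-alpha-hydroxylase of female mouse liver (mm10 chr7:26307169-26315088, plus strand). It had 128 to 990 TPM in DEN WT (median 636) and 168, 743 and 346 TPM in DEN LKO 1 to 3, against 992, 681 and 517 TPM in untreated WT and 0.93, 0.17 and 1.66 TPM in untreated LKO. The 3 untreated LKO libraries were far below the other 12. DEN LKO 2 and 3, which were XY like the untreated LKO libraries, had levels of the WT labels. The DEN effect was 7.60 ± 0.68 within LKO (limma adjusted p = 0.000109) and -0.42 ± 0.59 within WT, a difference of 8.01 ± 0.90 (limma adjusted p = 0.00233). Cyp2a4 shares most of its sequence with Cyp2a5, so reads can be split between them. Cyp2a5 had 617, 1102 and 1765 TPM in DEN LKO, against 666, 399 and 213 TPM in untreated LKO.

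**Figure D4:**
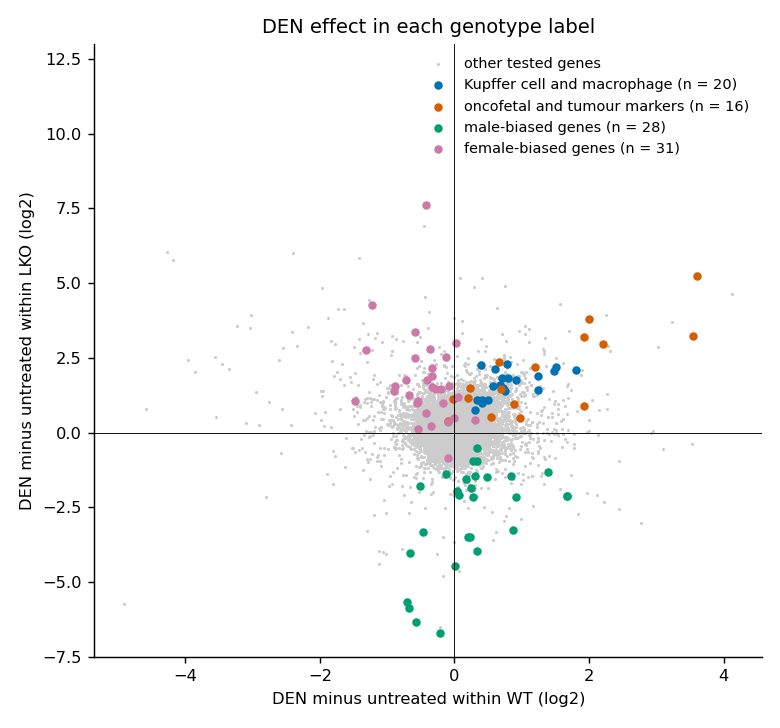
The DEN effect (log2, DEN minus untreated) within WT on the x axis and within LKO on the y axis for the 13249 tested genes, with 4 lists coloured. Kupffer cell genes lie above 0 on both axes (20 of 20). On the LKO axis female-biased genes lie mostly high and male-biased genes low, with Cyp2a4 at the top (7.60). On the WT axis 4 of 31 female-biased and 20 of 28 male-biased genes lie above 0.

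Cyp2a4 stood with the other genes that differ between male and female liver. The 28 tested male-biased genes had a median of -0.79 pooled, 0.23 within WT and -2.12 within LKO. Of them 16 differed between the labels at an unadjusted p under 0.05, beside 3.22% of all genes. Their summed level was 4991, 30770 and 3075 TPM in DEN LKO 1 to 3, against 51382 to 67508 TPM in untreated LKO. In DEN WT the sum was 1398 to 16137 TPM, against 2617 to 17062 TPM in untreated WT. The 31 female-biased genes had medians of 0.44 pooled, -0.36 within WT and 1.47 within LKO. Of them 14 differed between the labels at an unadjusted p under 0.05, again beside 3.22% of all genes.

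Mup1 and Mup12 encode major urinary proteins, pheromone carriers that male liver makes in bulk. Mup1 had 13.9 to 553 TPM in DEN WT (median 168) and 118, 752 and 4.74 TPM in DEN LKO 1 to 3, against 297, 648 and 50.3 TPM in untreated WT and 4949, 3259 and 4256 TPM in untreated LKO. Mup12 had 18, 332 and 1.61 TPM in DEN LKO, against 1523, 1030 and 2044 TPM in untreated LKO. All 3 DEN LKO libraries were below all 3 untreated LKO libraries for both genes, the XY libraries DEN LKO 2 and 3 included. The share of all genes with such a separation within LKO was not counted. Pooled values were -2.84 ± 1.14 for Mup1 and -2.90 ± 1.14 for Mup12 (limma adjusted p = 0.802 and 0.794).

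Cyp2d9, a male-biased steroid 16-alpha-hydroxylase, had effects of opposite sign under the WT and LKO labels, which also differ in sex. It had 10.4 to 45.8 TPM in DEN WT (median 39.9), against 10.3, 9.85 and 7.41 TPM in untreated WT, and 69.5, 409 and 127 TPM in DEN LKO, against 859, 489 and 706 TPM in untreated LKO. The difference of the effects was -3.78 (limma adjusted p = 0.462). The pseudogenes Mup-ps11 (-3.95, limma adjusted p = 0.134) and Mup-ps5 (-3.66, limma adjusted p = 0.434) were also named by the rule in that direction, and both passed within LKO (limma adjusted p = 0.0266 each). DEN LKO 1 was XX while untreated LKO was all XY, so sex and DEN are partly mixed in this contrast. Of the 28 male-biased genes 6 (21.4%) were lower at an unadjusted p under 0.05 in the pooled fit, beside 0.491% of all genes. Without DEN LKO 1 that count was 3 in place of 6. It was 0 without DEN LKO 3, 1, 2 and 3 without untreated LKO 1, 2 and 3 in turn, and 11 without untreated WT 3. Leaving out the 3 low-Ftcd libraries gave 10.

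**Figure D5:**
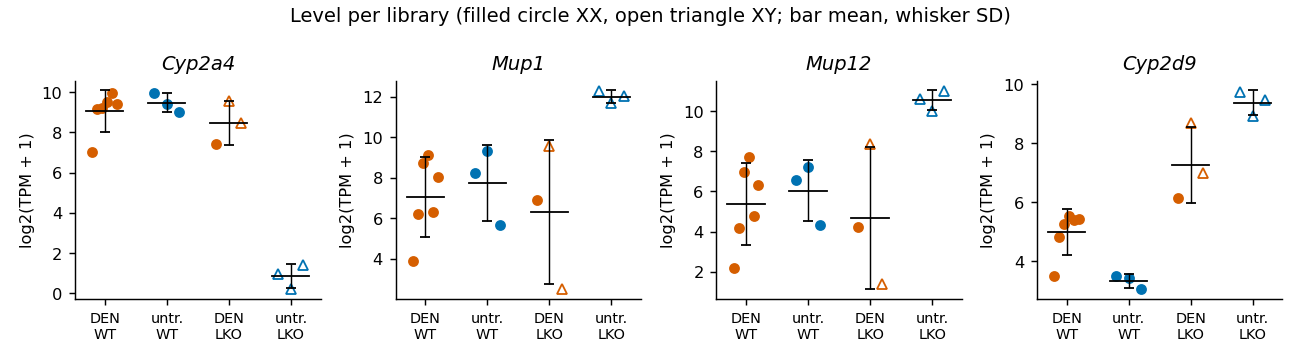
Levels on log2(TPM + 1) of Cyp2a4, Mup1, Mup12 and Cyp2d9 in each of the 15 libraries, with DEN left of untreated within each genotype label, filled circles XX, open triangles XY, bars means and whiskers SD (n = 6 for DEN WT, 3 for the other groups). Cyp2a4 is at 0.17 to 1.66 TPM in untreated LKO and at 128 TPM or more elsewhere, and Mup1, Mup12 and Cyp2d9 are highest in untreated LKO.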

How the data were processed

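RNA-seq of mouse liver gave 1 table of TPM values that the authors deposited, made with fastp, HISAT, RSEM and the mm10 genome per the submitters' processing notes. No version of these tools is named there. Per the labels' protocols RNA came from TRIzol extraction and TruSeq libraries. Each library sums to about 1000000 TPM, so abundant transcripts such as mitochondrial ones push down the rest, and counts and depth are unknown. The table's 5 group mean columns were not used.

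Values were taken as log2(TPM + 1) for the 13249 of 58126 genes that reached 1 TPM in 3 or more of the 15 libraries. Limma 3.58.1 (R 4.3.3), with an intensity trend and the genotype label as an additive term (12 residual degrees of freedom), tested DEN against untreated, 2-sided, with Benjamini-Hochberg adjustment over all genes and a threshold of 0.05. A fit of 4 group means (11 residual degrees of freedom) gave the effect within each genotype and their difference. The script was tested on simulated data. The mitochondrial share and Ftcd were tested by exact permutation within genotype. Python 3.11.15 with pandas 2.3.3, numpy 2.4.6 and matplotlib 3.10.9 gave tables and figures.

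The members and the 50 lists (1128 of 1136 entries found in the table) were chosen with earlier results of these data known, and lists are described by counts and medians only. Named genes were up to 12 per direction with the largest fold changes past the threshold, filled to 8 by the smallest unadjusted p where fewer qualified, if they had a regular symbol, averaged at least 5 TPM in the higher condition and kept 1 direction in both genotypes. Added were up to 4 genes per direction past the threshold for the difference between genotypes or else 3 of smallest p, 15 genes fixed by name, and up to 4 members per list of smallest unadjusted p with a mean of 1 TPM or more. Coordinates are from GENCODE M21 (mm10). Alternatives were a pseudocount of 0.1, no filter or a minimum of 5 TPM, other scalings, library weights, sex and mitochondrial terms, a replicate block, each genotype alone and leaving out libraries. Pairwise correlations of libraries were 0.711 to 0.958, and 0 pairs held identical values.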

Additional observations from a re-analysis of the deposited data

Results flagged for a closer look

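In the group of 6 DEN WT libraries, 57 values per library were examined for 1 library far from the other 5 by the ratio of its gap to the group's range, and 9 passed the critical ratio of 0.625. Ratios were taken on log2(TPM + 1), and on log2 of the percent for the mitochondrial share. The levels printed beside them are TPM and percent. Chance flags about 1 in 20 groups. DEN WT 4 stood above the others in Afp (30.4 TPM, ratio 0.68) and in Gpc3 (7.44 TPM, ratio 0.663). DEN WT 5 stood above the others in Ptpn18 (24.1 TPM, ratio 0.654), Lig1 (5.1 TPM, ratio 0.853), Hspa1a (3.5 TPM, ratio 0.855) and n-R5s130 (6.03 TPM with the other 5 listed at 0, ratio 1.0). DEN WT 1 stood below the others in Cyp2a4 (128 TPM, ratio 0.731) and Cyp2d9 (10.4 TPM, ratio 0.644), and above them in the mitochondrial share of TPM (38.8%, ratio 0.631). DEN WT 1 is also 1 of the 3 libraries labelled WT with low Ftcd.

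For Cyp2a4 the DEN effect in LKO minus that in WT was 8.01 on the log2 scale (limma adjusted p = 0.00233). It was higher in 3 of 3 DEN LKO libraries than in every untreated LKO library.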

How the results depend on the processing

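With 0 genes past the threshold for the pooled effect, the count stayed at 0 under every alternative run except equal weight of both genotypes (2 genes, Rad51b and Cyp2a4) and the libraries labelled LKO alone (9 genes), and 2 lists had a called member under each of those. The count for the difference between genotypes was 1, and became 4 with median-ratio scaling, 5 with quantile normalization, 989 with library weights, 2 with the mitochondrial share as a covariate, 5 without the 3 low-Ftcd libraries, and 1 to 11 when single libraries were left out (11 without DEN LKO 2, 4 without DEN WT 2). With the replicate number as a block it was 0, the Cyp2a4 difference being 8.59 (limma adjusted p = 0.572), and the pooled count was 0 with 395 genes at an unadjusted p under 0.05. Deviations of DEN and untreated libraries with the same replicate number correlated at -0.636 to 0.235 within WT and -0.236 to -0.0024 within LKO, so the numbers were not counted as pairs. Under the other alternatives the Cyp2a4 difference stayed past the threshold.

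Kupffer members numbered 9 with the replicate block, 6 in WT alone and 16 to 20 on leaving out single libraries. Oncofetal members numbered 6 with a 5 TPM minimum, 4 in WT alone, 8 with the block and 9 to 13 on leaving out libraries. Male-biased members lower numbered 3 with library weights or a sex term, 10 with the mitochondrial covariate or without the 3 low-Ftcd libraries, 16 with equal weight, 21 in LKO alone, 0 in WT alone or without the 2 high-mitochondrial libraries, and 0 to 11 on leaving out libraries. The sex term rests on DEN LKO 1, the one library whose sex differs from the rest of its genotype label.

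Signs reversed for the mitochondrial share of TPM (0.00302 without the 3 low-Ftcd libraries, -0.39 to 0.22 leaving out libraries), Ftcd by permutation and by limma (-1.15 to 0.042 leaving out libraries; by limma 0.28 with library weights, 0.29 with no genotype term, 0.21 in WT alone, 0.19 without the high-mitochondrial libraries), Cyp2e1 (0.27, 0.10, 0.42 and 0.16 under the same 4, -0.80 to 0.059 leaving out libraries), Ccng1 (0.18 with library weights, 0.021 with a sex term, 0.075 without the low-Ftcd libraries, 0.021 in WT alone, 0.12 without the high-mitochondrial ones, -0.17 to 0.12 leaving out libraries), Gdf15 (0.11 with library weights, 0.12 without the high-mitochondrial ones, -0.589 to 0.029 leaving out libraries), and in WT alone Cyp2a5 (-0.61), Glul (0.17) and Cyp2a4 (-0.42). The cause was not tested. Library weights moved the median of all genes to 0.21. Without counts, low genes carry no measure of their precision.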
